A study of Mus musculus with 6 samples.

Results

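Mitosis and G2/M genes are those a cell switches on to build the spindle, check chromosome attachment, separate sister chromatids and leave division. Listed by symbol, they were 35 genes, and their probes were found through the gene symbols and aliases of the array's annotation. Of the 35, 32 had a named probe among the 19053 genes named on the array. These 32 genes had 66 probes, from 1 to 4 each, and 24 genes had a probe bright enough to test. Another 8 (Ccna2, Ccnb2, Cks2, Nek2, Bub1, Cenpe, Kif20a and Hmmr) had no probe detected on at least 2 arrays, and their highest raw signal was 136.6. Ccnb1, Mki67 and Tacc3 had no probe named in the annotation used.

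RNA came from splenic CD11b+Gr-1high cells of mice with an H-2b background, sorted by flow cytometry above 97% purity, and was read on 6 Illumina bead arrays, 2 for each of 3 groups. The control mice were wild type and bore no tumor. The IRF8 KO mice also bore no tumor, and the third group were wild-type mice carrying a tumor of AT-3, a mouse mammary carcinoma cell line. IRF8 is a transcription factor of the interferon regulatory factor family that favours monocyte over granulocyte development. Per the design text the cells came from independent experiments. The labels give no ages, no knockout allele and no number of animals per array, and do not assign arrays to experiments. The p-values thus measure only the spread between these samples, which may be partly technical.

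Division runs on the kinase CDK1 with its cyclins, which starts mitosis, on Aurora and Polo kinases, which build the spindle and correct chromosome attachment, and on the anaphase promoting complex (APC/C), a ubiquitin ligase that ends it. In the granulocyte lineage, promyelocytes and myelocytes divide, whereas band cells and mature neutrophils do not. Transcripts of these genes are low in cells that have left the cycle and peak in G2 and mitosis.

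Per array, 31.0% to 38.4% of probes were detected and the mean raw signal was 265 to 421, lowest on the AT-3 arrays. Across all features the arrays correlated at 0.990 within wild type, 0.970 within KO, 0.978 within AT-3 and 0.857 to 0.936 between groups. Irf8, the targeted gene, read 6.86 and 6.70 (normalized log2 level) in wild type, 4.85 and 5.34 in KO and 8.82 and 8.09 in AT-3 cells, so it was lowest on the arrays labelled KO. The sources used here do not place its probe relative to the deleted part, which limits this check. Of 12 neutrophil markers fixed for the label, 9 were tested, their summed linear level was 99580 to 120900 on the 6 arrays, and Ly6g, Ly6c2 and Fpr1 had no probe named. That sum held opposite changes: in KO cells Itgam (2.06) and Ly6c1 (1.70) rose and Csf3r (-2.25) and Cxcr2 (-2.06) fell on the log2 scale, and in AT-3 cells 3 rose and 2 fell.

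In KO cells 20 of the 24 tested genes rose, 0 fell and 4 did not pass, where 15.4% of all 12492 features tested were called higher and 16.5% lower. In AT-3 cells, meaning splenic cells of the tumor-bearing mice, 20 rose, 0 fell and 4 did not pass, where 17.3% of features were called higher and 17.6% lower. The 4 that did not pass were Ttk, Cenpf, Kif23 and Ube2c each time, and the 2 wild-type arrays are shared by both comparisons. A call is an adjusted p under 0.05, from limma with Benjamini-Hochberg adjustment over all features. Differences are given on the log2 scale with their standard error (SE), from 2 arrays a group. The median difference of the 24 genes was 3.74 in KO and 3.52 in AT-3 cells, beside -0.01 for all features in both, and setting undetected sides to their bound left both medians unchanged. In samples of mixed cells, fewer cells of a type and less RNA per cell cannot be told apart.

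Called differences in KO cells ran from 2.13 for Cenpa to 4.94 for Top2a (adjusted p = 0.000509 to 0.00702). In AT-3 cells they ran from 1.94 for Cenpa to 4.54 for Birc5 (adjusted p = 0.000891 to 0.00805). The KO arrays lay wholly outside the wild-type arrays for 22 of the 24 genes, as they did for 69.2% of all features. The AT-3 arrays did so for 22 of 24, as for 71.9% of all features. A gene seen only in the group where it is high had to differ to be tested at all. Of the 24, 15 were detected on both wild-type arrays, and 14 of these rose in KO and 14 in AT-3 cells. The exception in both was Kif23.

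**Figure D1:**
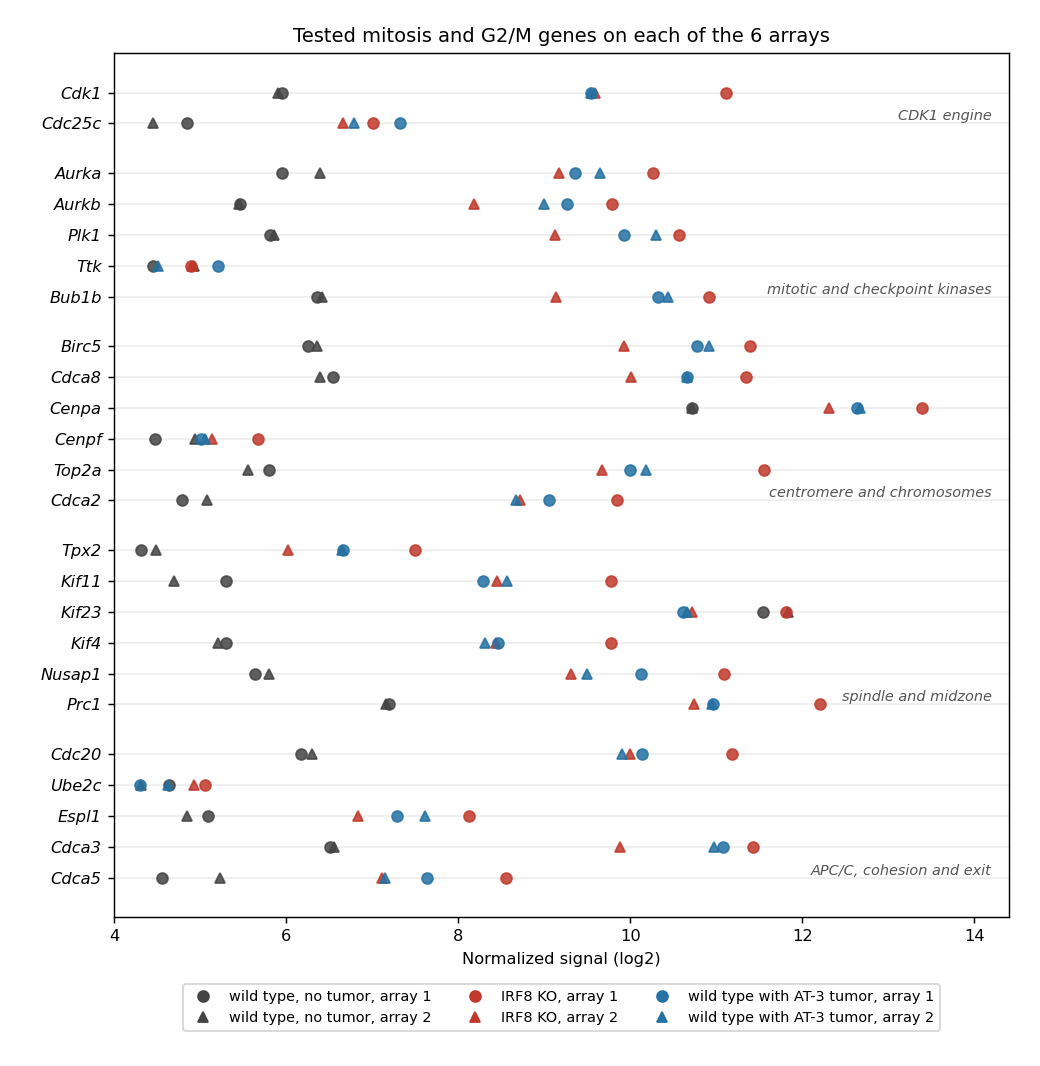
Normalized log2 signal of the 24 tested mitosis and G2/M genes, ordered by role, with 1 point per array (circles array 1, triangles array 2; grey wild type, red IRF8 KO, blue AT-3 tumor). For 20 genes all red and blue points lie far to the right of both grey points, and the Cenpf points are separated only narrowly. The Ttk groups overlap. For Kif23 red overlaps with grey and blue lies to the left of grey, and for Ube2c blue overlaps with grey and red lies to the right of both.

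Many promoters of this class carry a cell cycle genes homology region (CHR), the element bound by the MuvB core of the DREAM and MYB-MuvB complexes, and CCAAT boxes, which NF-Y binds. Promoters of 300 bases (250 before to 50 after the start) were taken from RefSeq on GRCm38.p6 for 29 of the 35 genes. For a CHR the letters TTTGAA were searched on either strand and so were the letters TTCGAA, and a match was found in 22 of 29 (75.9%) and in 19.2% of all 32851 promoters of that length. CCAAT, on either strand, was found in 25 of 29 (86.2%) against 37.4%, and both motifs in 21 of 29 (72.4%) against 7.52%. Between bases -40 and 50 a CHR match was present in 21 of 29 (72.4%) against 4.74% of all promoters. Neighbouring matches can share bases, as a CHR and a CCAAT match share 1 base in Cdca8. A match is a description of letters, not a binding site.

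Of the 16 genes with a promoter sequence that rose in KO cells, 13 held both motifs, and so did all 4 tested genes that did not pass (Ttk, Cenpf, Kif23 and Ube2c). The stretch from base -100 to 50 is shown for the gene with the largest and, where a sequence was at hand, the smallest KO difference of each role, so that genes that rose can be read beside genes that did not. Capitals mark the CHR letters (TTTGAA forward, read as TTCAAA on the other strand) and the CCAAT box (read as ATTGG on the other strand). Cdk1, Plk1, Top2a, Nusap1 and Cdc20 rose, whereas Ttk, Cenpf, Kif23 and Ube2c did not pass.
Cdk1 (chr10:69352863-69353012, minus strand): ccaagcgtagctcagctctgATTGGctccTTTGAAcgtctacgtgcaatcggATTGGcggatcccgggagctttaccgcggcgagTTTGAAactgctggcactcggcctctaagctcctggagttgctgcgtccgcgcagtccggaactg
Plk1 (chr7:122159335-122159484, plus strand): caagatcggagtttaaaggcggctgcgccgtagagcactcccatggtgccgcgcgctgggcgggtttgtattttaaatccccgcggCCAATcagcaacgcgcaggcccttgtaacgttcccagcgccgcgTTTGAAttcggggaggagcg
Ttk (chr9:83834589-83834738, plus strand): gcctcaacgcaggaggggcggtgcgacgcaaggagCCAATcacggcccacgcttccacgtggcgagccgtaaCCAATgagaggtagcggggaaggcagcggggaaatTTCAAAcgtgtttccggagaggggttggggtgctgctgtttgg
Top2a (chr11:99024140-99024289, minus strand): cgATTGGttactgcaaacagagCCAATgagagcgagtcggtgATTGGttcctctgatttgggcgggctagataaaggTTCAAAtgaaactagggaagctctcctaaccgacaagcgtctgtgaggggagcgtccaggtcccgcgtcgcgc
Cenpf (chr1:189688037-189688186, minus strand): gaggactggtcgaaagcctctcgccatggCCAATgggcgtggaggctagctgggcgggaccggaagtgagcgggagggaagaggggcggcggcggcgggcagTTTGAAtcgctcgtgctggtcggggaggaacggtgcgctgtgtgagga
Nusap1 (chr2:119618198-119618347, plus strand): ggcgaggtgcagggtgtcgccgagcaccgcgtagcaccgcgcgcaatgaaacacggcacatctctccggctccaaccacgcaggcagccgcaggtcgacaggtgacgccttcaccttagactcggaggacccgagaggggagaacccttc
Kif23 (chr9:61946750-61946899, minus strand): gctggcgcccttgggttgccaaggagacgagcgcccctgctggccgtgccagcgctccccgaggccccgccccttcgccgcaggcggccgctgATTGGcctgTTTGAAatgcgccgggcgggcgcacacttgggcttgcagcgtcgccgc
Cdc20 (chr4:118437294-118437443, minus strand): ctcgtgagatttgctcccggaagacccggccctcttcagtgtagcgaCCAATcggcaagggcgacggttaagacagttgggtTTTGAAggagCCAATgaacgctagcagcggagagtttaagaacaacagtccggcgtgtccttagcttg
Ube2c (chr2:164769829-164769978, plus strand): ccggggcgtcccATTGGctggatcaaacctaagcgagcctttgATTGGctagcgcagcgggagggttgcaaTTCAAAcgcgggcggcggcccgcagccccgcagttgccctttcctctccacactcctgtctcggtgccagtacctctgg

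Cdk1 shows 2 CHR matches and 2 CCAAT boxes in this window, and Top2a shows 1 CHR match with 3 CCAAT boxes. Nusap1, which rose, shows no match here. Cenpf and Kif23 each hold a CHR match from base 3 to base 8, and Plk1 from base 31 to base 36.

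Both tested genes of the CDK1 engine rose. Cdk1, the kinase that triggers mitosis, had log2 levels of 5.95 and 5.90 in wild-type, 11.11 and 9.59 in KO and 9.54 and 9.54 in AT-3 cells. All 4 KO and AT-3 arrays lay above the wild-type arrays, with KO array 1 the highest. The difference was 4.42 in KO (SE 0.44, 21.5-fold, adjusted p = 0.000795) and 3.61 in AT-3 cells (SE 0.44, 12.2-fold, adjusted p = 0.00178). The raw signals of the tested Cdk1 probe were 162.4 and 148.7 in wild-type, 2759.1 and 1089.8 in KO and 525.4 and 486.4 in AT-3 cells. Its detection p was 0.00107 on wild-type array 1 and listed as 0 on the other 5 arrays, while its other 2 probes were detected on no array.

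Cdc25c encodes the phosphatase that removes inhibitory phosphates from CDK1. Its log2 levels were 4.84 and 4.44 in wild-type, 7.01 and 6.66 in KO and 7.32 and 6.78 in AT-3 cells. Neither wild-type array detected it (detection p of 0.0983 and 0.582), so the fold is a bound: the bright group's mean against, per wild-type array, the higher of the probe's own value and the lowest signal among detected probes. Cdc25c was at least 3.66-fold higher in KO (2.19, SE 0.28, adjusted p = 0.00171) and at least 4.26-fold higher in AT-3 cells (2.41, SE 0.28, adjusted p = 0.00152). A second Cdc25c probe, also undetected on both wild-type arrays, was at least 3.42-fold and at least 4.31-fold higher. The cyclin genes Ccna2 and Ccnb2 and Cks2, which encodes a small CDK-binding protein, were not detected, with raw signals of at most 128.4, 122.4 and 126.4.

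Of the mitotic and checkpoint kinases, 4 of 5 tested genes rose in each comparison. Plk1, the Polo kinase of spindle assembly, had log2 levels of 5.81 and 5.86 in wild-type, 10.57 and 9.12 in KO and 9.92 and 10.30 in AT-3 cells. It rose by 4.01 in KO (SE 0.44, 16.1-fold, adjusted p = 0.00106) and by 4.28 in AT-3 cells (SE 0.44, 19.4-fold, adjusted p = 0.00107). The 2 AT-3 arrays lay between the 2 KO arrays.

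Aurka, the Aurora kinase of the spindle poles, read 5.95 and 6.39 in wild-type, 10.27 and 9.18 in KO and 9.36 and 9.65 in AT-3 cells, differences of 3.55 (SE 0.37) and 3.33 (SE 0.37). Aurkb, the catalytic subunit of the chromosomal passenger complex, read 5.46 and 5.45, then 9.78 and 8.19, then 9.26 and 9.0, differences of 3.53 (SE 0.47) and 3.67 (SE 0.47). Both Aurora genes had 1 probe, detected on all 6 arrays, and their groups did not overlap with wild type. Bub1b, which encodes the spindle checkpoint protein BUBR1, rose by 3.64 (SE 0.51) and 4.0 (SE 0.51), and its second probe, undetected on both wild-type arrays, was at least 7.10-fold and at least 8.53-fold higher.

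Ttk, the checkpoint kinase also known as MPS1, read 4.44 and 4.92 in wild-type, 4.89 and 4.90 in KO and 5.20 and 4.50 in AT-3 cells. Its 3 groups overlapped, and the differences of 0.21 (SE 0.30, adjusted p = 0.638) and 0.17 (SE 0.30, adjusted p = 0.694) did not pass. Raw signals of this Ttk probe were 112.3 to 141.3, and it was detected on both KO arrays (detection p of 0.0203 and 0.0417), on AT-3 array 1 (0.0235) and on no wild-type array. The 2 undetected kinase genes had raw signals of at most 136.6 for Nek2 and 134.1 for Bub1, and most of their readings were not detected. Nek2, a centrosome kinase, and Bub1, a checkpoint kinase, each had 1 probe detected on 1 array, Nek2 on wild-type array 2 (detection p of 0.0150) and Bub1 on AT-3 array 1 (0.0150).

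Among genes of the centromere and chromosomes, 5 of 6 tested rose in each comparison. Top2a, the topoisomerase that untangles sister chromatids, read 5.80 and 5.55 in wild-type, 11.56 and 9.67 in KO and 9.99 and 10.19 in AT-3 cells. No KO or AT-3 array came within 3 log2 units of a wild-type array. The rise was 4.94 in KO (SE 0.54, 30.7-fold, adjusted p = 0.00105) and 4.42 in AT-3 cells (SE 0.54, 21.3-fold, adjusted p = 0.00175). The 3 Top2a probes did not read alike: a second, undetected on both wild-type arrays, was at least 5.27-fold and at least 2.64-fold higher, and the dimmest, with raw signals of 113.8 to 140.3, did not pass in either comparison.

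Birc5, which encodes survivin of the chromosomal passenger complex, read 6.25 and 6.36 in wild-type, 11.39 and 9.93 in KO and 10.77 and 10.91 in AT-3 cells. It rose by 4.35 in KO (SE 0.43, 20.4-fold, adjusted p = 0.000764) and by 4.54 in AT-3 cells (SE 0.43, 23.2-fold, adjusted p = 0.000891). All 3 Birc5 probes were detected on all 6 arrays and gave 4.31 to 4.35 in KO and 4.19 to 4.54 in AT-3 cells. Cdca8, which encodes borealin of the same complex, rose by 4.21 (SE 0.40) and 4.19 (SE 0.40), and its second probe by 4.26 and 3.65.

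Cenpa encodes the histone H3 variant that marks centromeres. Its levels were 10.71 and 10.72 in wild-type, 13.39 and 12.30 in KO and 12.63 and 12.67 in AT-3 cells. It rose by 2.13 in KO (SE 0.35, 4.38-fold, adjusted p = 0.00412) and by 1.94 in AT-3 cells (SE 0.35, 3.83-fold, adjusted p = 0.00602), the smallest called difference of each comparison. Its probe was bright in wild-type cells too, with raw signals of 2161.5 and 2065.7. A second, dim Cenpa probe, undetected on both wild-type arrays, was at least 1.66-fold higher in KO (adjusted p = 0.0346) and did not pass in AT-3 cells (adjusted p = 0.133).

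Cdca2, whose protein brings a phosphatase to chromosomes at mitotic exit, read 4.78 and 5.08 in wild-type, 9.85 and 8.72 in KO and 9.05 and 8.67 in AT-3 cells. It rose by 4.36 in KO (SE 0.38, adjusted p = 0.000509) and by 3.93 in AT-3 cells (SE 0.38, adjusted p = 0.000891), while a second probe, detected on the KO arrays only, did not pass. Cenpf, a kinetochore protein gene, read 4.47 and 4.94 in wild-type, 5.67 and 5.14 in KO and 5.01 and 5.05 in AT-3 cells. Its arrays did not overlap with wild type, but the differences of 0.70 in KO (SE 0.27, adjusted p = 0.0906) and 0.32 in AT-3 cells (SE 0.27, adjusted p = 0.399) did not pass. With no scaling between the 6 arrays the Cenpf difference in KO was 1.00 and passed (adjusted p = 0.0364), where 37.2% of all features were called. Without KO array 2 it was 0.97, in a fit that rests on 1 KO array. Cenpe, the kinetochore motor gene, was not detected, with a highest signal of 121.0.

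Of the spindle and midzone genes, 5 of 6 tested rose in each comparison, and Kif23 stood apart. Nusap1, a microtubule-bundling protein gene, read 5.63 and 5.80 in wild-type, 11.09 and 9.31 in KO and 10.13 and 9.49 in AT-3 cells. It rose by 4.48 in KO (SE 0.53, 22.4-fold, adjusted p = 0.00133) and by 4.10 in AT-3 cells (SE 0.53, 17.1-fold, adjusted p = 0.00215). Only 1 of its 4 probes was tested, and another was detected on KO array 1 alone (raw signal 178.9, detection p of 0.00107).

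Prc1, which bundles antiparallel microtubules of the midzone, read 7.20 and 7.15 in wild-type, 12.20 and 10.74 in KO and 10.96 and 10.95 in AT-3 cells, a rise of 4.29 (SE 0.43) and 3.78 (SE 0.43). Kif11, the motor that pushes spindle poles apart, rose by 4.11 (SE 0.44) and 3.43 (SE 0.44). Kif4, a chromosome-bound motor, rose by 3.85 (SE 0.40) and 3.13 (SE 0.40), and all 3 of its probes passed in both comparisons. A second Kif4 probe gave 2.68 and 1.92, and the other, undetected on both wild-type arrays, was at least 5.45-fold and at least 3.35-fold higher. For these motors and Prc1 no KO or AT-3 array reached down to a wild-type array.

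Tpx2, which activates Aurora A on spindle microtubules, read 4.32 and 4.48 in wild-type, 7.50 and 6.01 in KO and 6.66 and 6.65 in AT-3 cells. It was detected on neither wild-type array (detection p of 0.902 and 0.496) and was at least 3.47-fold higher in KO (2.36, SE 0.44, adjusted p = 0.00702) and at least 3.23-fold higher in AT-3 cells (2.26, SE 0.44, adjusted p = 0.00805). Without wild-type array 1 the differences were 2.28 in KO and 2.18 in AT-3 cells, and without array 2 the AT-3 difference was 2.34. The differences thus moved little, but these calls were lost in those fits. They rest on 1 wild-type array, and calls over all features fell there as well. Kif20a, a midzone motor gene, and Hmmr, a spindle assembly gene, were not detected.

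Kif23 encodes the motor of centralspindlin, which is needed for cytokinesis. Its levels were 11.55 and 11.83 in wild-type, 11.81 and 10.71 in KO and 10.62 and 10.66 in AT-3 cells, so the wild-type arrays were not the low ones. The KO arrays overlapped with wild type, and the AT-3 arrays lay below it. The differences were -0.43 in KO (SE 0.36, adjusted p = 0.409) and -1.05 in AT-3 cells (SE 0.36, adjusted p = 0.0563), and neither passed. Of the 24 tested genes, Kif23 alone had a negative difference in KO cells.

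The 4 Kif23 probes fell into bright and dim readings. The probe used for the test had raw signals of 3828.0 and 4391.4 in wild-type, 4343.6 and 2224.6 in KO and 998.8 and 944.3 in AT-3 cells. A second bright probe read 3079.4 and 3271.4, then 2650.5 and 1551.4, then 544.7 and 582.3, and with every probe tested on its own it fell in AT-3 cells (-1.58, SE 0.32, adjusted p = 0.00956) and did not pass in KO (-0.75, SE 0.32, adjusted p = 0.121). The other 2 probes, with raw signals of 126.6 to 236.5, gave -0.56 and -0.03 in AT-3 cells and did not pass. The missing call of the tested Kif23 probe in AT-3 cells depends on the setting: it was called lower under 10 of 20 alternatives. These 10 are not all separate, since leaving out either KO array gave the same Kif23 values as a fit of the 4 arrays compared. Other scalings were among the 10 (-2.20, adjusted p = 0.00104 with none). So were settings with the scaling unchanged, such as the fit of the 4 arrays (-1.05, adjusted p = 0.0102) and trended, robust moderation (-1.05, adjusted p = 0.0360).

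**Figure D2:**
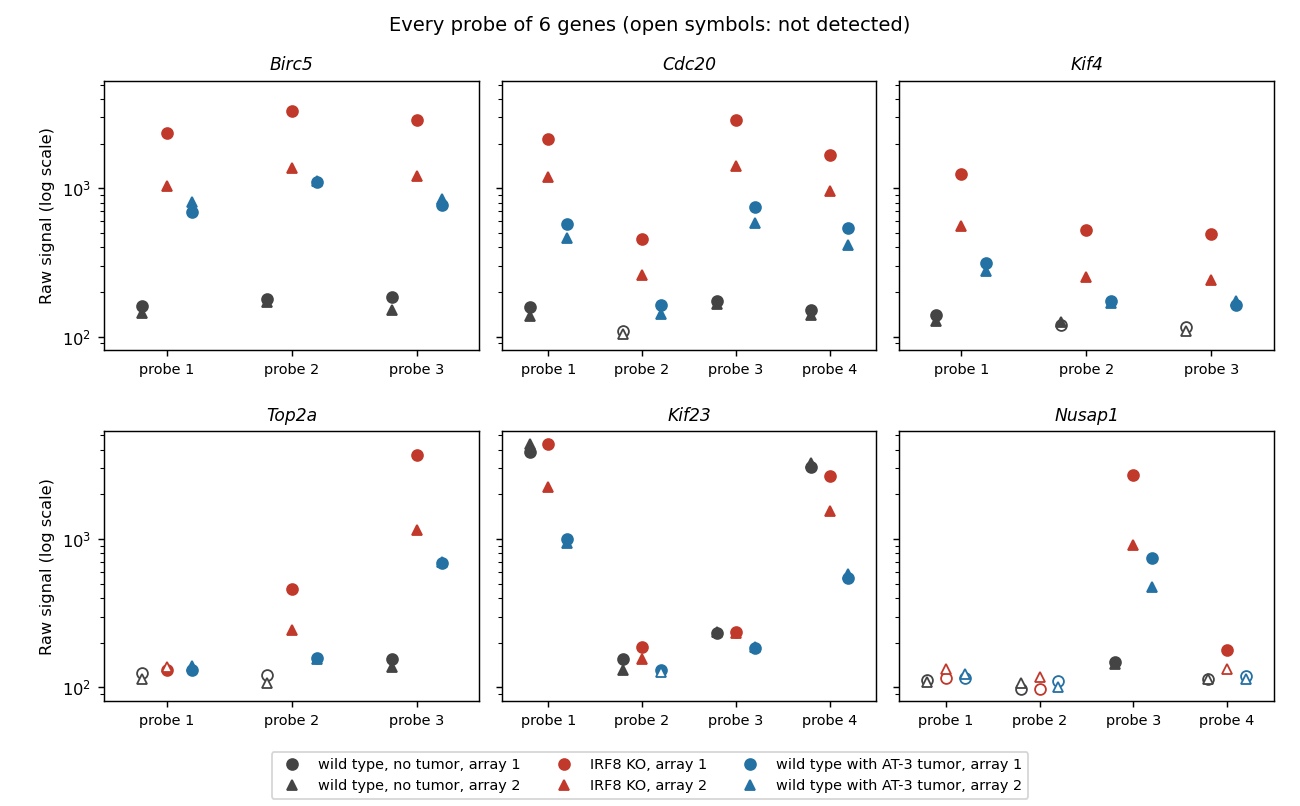
Raw signal on a log axis of every probe of 6 genes, 1 point per array (circles array 1, triangles array 2; grey wild type, red IRF8 KO, blue AT-3 tumor; open symbols not detected). All probes of Birc5, Cdc20 and Kif4 read lowest in wild type, the dim Top2a and Nusap1 probes differ little between groups, and the bright Kif23 probes are highest in wild type and on KO array 1.

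In the APC/C, cohesion and exit group, 4 of 5 tested genes rose in each comparison. Cdc20, the activator of the APC/C at anaphase, had raw signals of 173.5 and 166.9 in wild-type, 2880.7 and 1410.2 in KO and 751.5 and 584.2 in AT-3 cells, with both wild-type arrays the lowest. Its normalized level rose by 4.35 in KO (SE 0.37, 20.4-fold, adjusted p = 0.000509) and by 3.78 in AT-3 cells (SE 0.37, 13.8-fold, adjusted p = 0.000938). All 4 Cdc20 probes passed in both comparisons. The 3 detected on the wild-type arrays gave 4.17 to 4.46 in KO and 3.74 to 3.84 in AT-3 cells, and the one that was not was at least 5.47-fold and at least 2.36-fold higher.

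Cdca3, an F-box-like adaptor gene that promotes mitotic entry, read 6.51 and 6.55 in wild-type, 11.43 and 9.88 in KO and 11.07 and 10.97 in AT-3 cells. It rose by 4.12 in KO (SE 0.45, 17.4-fold, adjusted p = 0.00106) and by 4.49 in AT-3 cells (SE 0.45, 22.4-fold, adjusted p = 0.00101), and its second probe also passed, at 3.72 and 3.51. Espl1 encodes separase, the protease that cuts cohesin. It read 5.09 and 4.84 in wild-type, 8.12 and 6.84 in KO and 7.29 and 7.61 in AT-3 cells, rises of 2.52 (SE 0.41) and 2.49 (SE 0.41).

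Cdca5 encodes sororin, which protects cohesin until anaphase. It read 4.55 and 5.23 in wild-type, 8.55 and 7.11 in KO and 7.64 and 7.15 in AT-3 cells, and only array 2 of the wild type detected it (detection p of 0.0160). The rises were 2.94 in KO (SE 0.48, adjusted p = 0.00418) and 2.50 in AT-3 cells (SE 0.48, adjusted p = 0.00771). The AT-3 call was lost when no background was taken off (1.05, adjusted p = 0.0501). It was also lost in fits that left 1 array in a group, without wild-type array 1 (2.16) or without AT-3 array 1 (2.25).

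Ube2c, the ubiquitin-conjugating enzyme of the APC/C, had 1 probe, with raw signals of 99.2 to 142.1. Its log2 levels were 4.64 and 4.31 in wild-type, 5.06 and 4.93 in KO and 4.29 and 4.62 in AT-3 cells. It was detected on the 2 KO arrays alone (detection p of 0.00534 and 0.0374), which is how it entered the test. The KO arrays lay above the others, but 0.52 in KO (SE 0.24, adjusted p = 0.134) and -0.01 in AT-3 cells (SE 0.24, adjusted p = 0.975) did not pass.

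**Figure D3:**
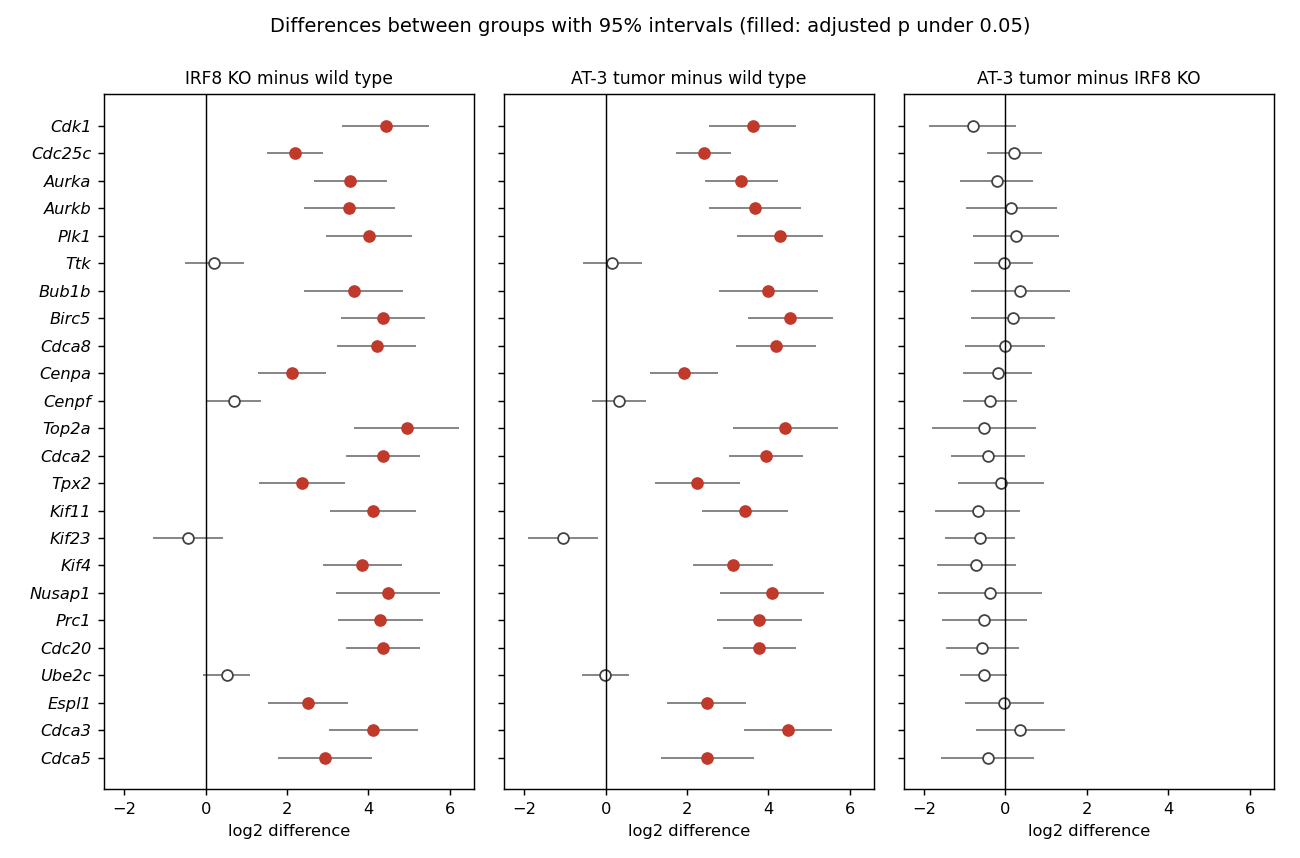
Log2 difference of each tested gene in the 3 comparisons, with points for the fitted difference, bars for the 95% interval and filled points for an adjusted p under 0.05. The 20 called genes lie between 2.13 and 4.94 in KO and between 1.94 and 4.54 in AT-3 cells, and every interval in the panel of AT-3 against KO crosses 0.

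The direct comparison of AT-3 with KO cells asked whether the fractions of the tumor-bearing and knockout mice differ. In limma 0 of the 24 genes passed, and 0 had an unadjusted p under 0.05, where 6.16% of all features were called higher and 5.34% lower. Ube2c had the lowest adjusted p, at 0.190. The AT-3 and KO arrays did not overlap for 4 of 24 genes, as for 54.6% of all features. Among the 20 genes that rose against wild type, the difference ran from -0.81 for Cdk1 to 0.37 for Cdca3, and the 95% intervals reached from -1.85 to 1.55. Differences of more than 2-fold either way thus lie within the intervals, and similar levels in KO and AT-3 cells are not shown. Cdk1 had an interval of -1.85 to 0.23 and Cdca8 one of -0.96 to 0.94.

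Of the 24 differences 18 were negative and 6 positive, with a median of -0.30, or -0.21 with bounds. These signs depend on how arrays are scaled, since the AT-3 arrays were dimmer. With the median of all probes set equal 12 genes were called lower, together with 51.7% of features called in either direction, and with no scaling 17 were, together with 56.7%. Under those settings the median of all features was -0.73 and -0.83, and the median of the 24 genes relative to it was -0.35 in both, against -0.28 in the main setting.

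The KO arrays were not alike, and 1 of them decides some of these values. For the 20 genes that rose, KO array 1 was above KO array 2 in 20 of 20, by 0.35 to 1.89 with a median of 1.45, where the 5th and 95th percentiles of all features were -0.88 and 1.03. The same difference had a median of -0.02 between the wild-type arrays and -0.00 between the AT-3 arrays, with 9 and 10 of 20 genes higher on array 1. Without KO array 1 the median difference from wild type over the 24 genes was 3.09, and without KO array 2 it was 4.52, and the 20 genes were called under both.

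The differences of AT-3 from KO cells also moved with the missing KO array, in fits that rest on 1 KO array. Without KO array 2, Cdk1 was at -1.57, Top2a at -1.47 and Kif4 at -1.39. Prc1 was at -1.25 there, Kif23 at -1.17 and Cdc20 at -1.16. Without KO array 1, Bub1b was at 1.25 and Cdca3 at 1.14. The median of the 24 genes was then 0.34, against -0.30 with both KO arrays. For Kif23 the difference of KO cells from wild type was -0.97 without KO array 1.

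Other gene groups moved with that gap between the KO arrays. The S phase genes were higher on KO array 1 in 24 of 24 (median 2.11), and primary granule genes, made in promyelocytes, in 9 of 10 (median 3.23). The secondary granule genes, made in myelocytes, were not (median -0.12, 3 of 10 higher). The part of these groups in the difference between the arrays was not tested. Per the design text the cells came from independent experiments, and the labels do not say which array belongs to which.

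**Figure D4:**
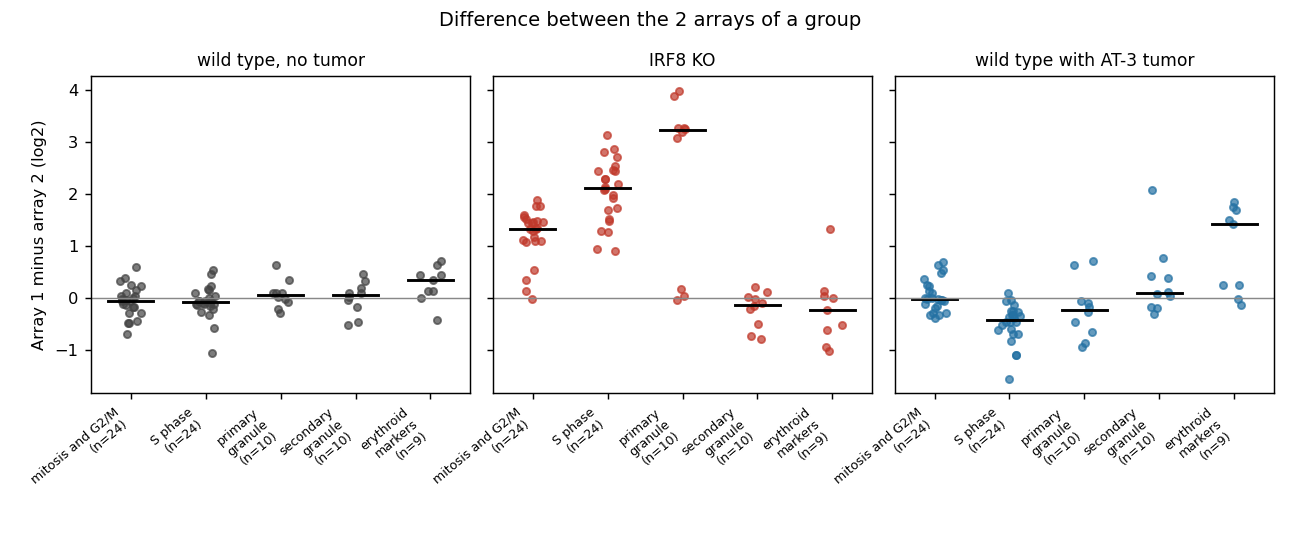
Difference between array 1 and array 2 of each group (log2, vertical axis), 1 point per gene and a bar at the median, for the mitosis and G2/M genes and 4 other lists. In KO cells the mitosis and G2/M, S phase and primary granule medians are 1.34, 2.11 and 3.23, while in wild-type cells the medians of those 3 lists are near 0. Single genes spread more, as S phase genes do in wild-type cells from -1.06 to 0.54. In AT-3 cells the S phase median is -0.41 and the erythroid median 1.43.

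Further genes of the same machinery were read from fixed lists, as counts beside the 24. For every list below, the share of all features to set beside it was 15.4% called higher and 16.5% lower in KO cells. In AT-3 cells it was 17.3% higher and 17.6% lower. Of 25 tested kinetochore, centromere and checkpoint genes outside the list, 20 rose and 0 fell in KO cells and 19 rose and 0 fell in AT-3 cells, with medians of 2.34 and 1.85 (2.09 and 1.67 with bounds). Among them were Cenpw (3.54 and 3.40) and Sgo1, the protector of centromeric cohesion, which no wild-type array detected and which was at least 9.64-fold and at least 6.78-fold higher. Of 27 tested spindle, kinesin and cytokinesis genes, 25 rose in KO and 21 in AT-3 cells and 0 fell, with medians of 2.57 and 2.20 (2.49 and 1.96 with bounds). No wild-type array detected 8 of the 25 kinetochore and 16 of the 27 spindle genes. These were tested only because another group was high, so they could hardly be called lower. Kif22, a chromosome-arm motor gene, rose by 4.17 and 4.23 and Kif2c, a microtubule-depolymerizing motor gene, by 4.16 and 3.99.

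Of the condensin and cohesin genes, 7 of 15 rose in KO and 6 in AT-3 cells and 0 fell, with medians of 1.09 and 0.91. No wild-type array detected 4 of these 15. The condensin genes Ncapd2 (4.26 and 4.18) and Ncaph (3.70 and 3.77) were among those that rose. Of 17 further mitotic entry and APC/C genes, 8 rose and 1 fell in KO and 5 rose and 1 fell in AT-3 cells, with medians of 0.75 and 0.49. Pbk, a mitotic kinase gene, rose by 4.14 and 3.57.

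Pttg1, which encodes securin, the inhibitor of separase, was the gene that fell. It read 7.46 and 7.43 in wild-type, 4.47 and 4.97 in KO and 4.31 and 4.62 in AT-3 cells, the reverse of Espl1, the separase gene. Pttg1 fell by 2.72 in KO (SE 0.25, adjusted p = 0.000596) and was at least 5.29-fold lower in AT-3 cells (-2.98, SE 0.25, adjusted p = 0.000665), where neither array detected it.

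Of 19 tested transcriptional regulators of the cell cycle, 6 rose and 1 fell in KO and 4 rose and 1 fell in AT-3 cells. Of all features 15.4% were called higher and 16.5% lower in KO cells, and 17.3% and 17.6% in AT-3 cells. Foxm1, which encodes an activator of G2/M genes, read 5.46 and 4.80 in wild-type, 8.99 and 7.57 in KO and 8.03 and 7.80 in AT-3 cells, rises of 3.15 (SE 0.46, adjusted p = 0.00279) and 2.79 (SE 0.46, adjusted p = 0.00460). E2f1, an activator of S phase genes, rose by 2.11 and 1.52. Of 24 tested S phase genes, 16 rose and 0 fell in KO and 17 rose and 0 fell in AT-3 cells, with medians of 2.18 and 2.35 (1.99 and 2.20 with bounds). No wild-type array detected 7 of these 24, which could hardly be called lower.

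**Figure D5:**
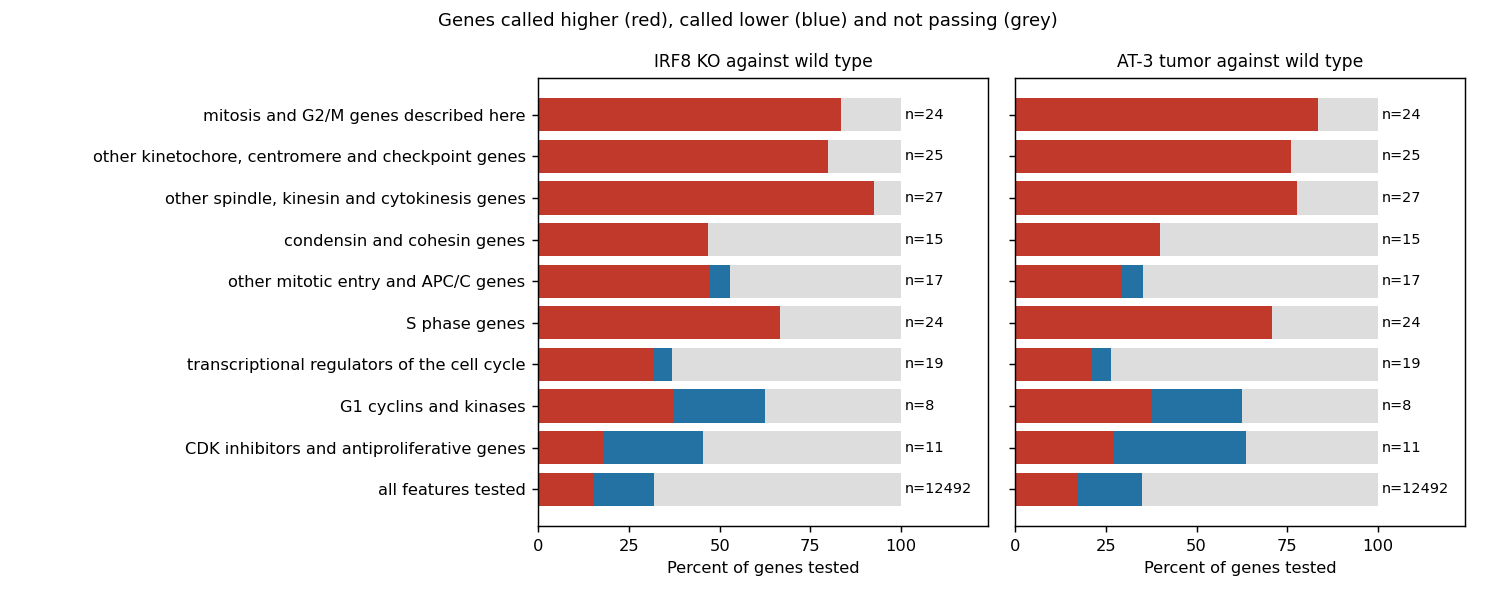
Share of tested genes called higher (red), called lower (blue) or not passing (grey) against wild type, for the mitosis and G2/M genes, 8 related lists and all 12492 features. The 24 mitosis and G2/M genes and the kinetochore and spindle lists are mostly red in both panels, with 0 called lower. Genes that no wild-type array detected (5 of 24, 8 of 25 and 16 of 27 in these lists) could hardly be called lower.

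Markers of other cells were read beside these rises, with 15.4% of all features called higher and 16.5% lower in KO cells. In AT-3 cells the shares were 17.3% and 17.6%, and short lists with few calls lie near such shares. Of 9 tested erythroid markers, 0 rose and 4 fell in KO cells, with a summed linear level of 21330 and 14290 in wild-type and 1121 and 1185 in KO cells. In AT-3 cells 8 of the 9 rose, with a summed level of 113500 and 94560. Klf1, Epor, Gata1 and Tspo2 were not detected. Of 4 tested progenitor markers, 2 rose in KO cells, Kit (2.96, adjusted p = 0.0266) and Spn (1.89, adjusted p = 0.00917), and 0 passed in AT-3 cells. Their summed level was 180 and 275 in wild-type, 1281 and 984.6 in KO and 264 and 564 in AT-3 cells, and Cd34, Flt3 and Gata2 were not detected.

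Primary granule genes rose for 8 of 10 in KO and 6 of 10 in AT-3 cells, with median differences of 4.16 and 2.93 (4.16 and 2.82 with bounds). Their summed levels were 29750 and 30220 in wild-type, 81970 and 35550 in KO and 43820 and 47660 in AT-3 cells. Lyz2 made up most of the wild-type sum. Its log2 levels were 14.76 and 14.79 in wild-type, 14.56 and 14.51 in KO and 14.94 and 15.03 in AT-3 cells. Secondary granule genes rose for 8 of 10 in each, with summed levels of 90970 and 93250, then 166300 and 178200, then 170300 and 165500. Of 12 tested monocyte and macrophage markers, 12 fell in KO and 10 fell and 2 rose in AT-3 cells, and their summed level was 14250 and 12140, then 910.2 and 782.2, then 5351 and 7129. Among 7 tested B cell and plasma cell markers 2 rose in KO and 1 fell in AT-3 cells, with summed levels of 3531 to 5684 over all arrays, and Blnk, Pax5, Jchain and Sdc1 were not detected. Of 5 tested T and NK cell markers 1 rose in KO and 0 in AT-3 cells, with summed levels of 457 to 1026, and Cd247, Cd4, Cd8a and Ncr1 were not detected. The part of any of these cells in the rise of the mitosis and G2/M genes was not tested.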

How the data were processed

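Per the file headers, the authors deposited an unnormalized signal intensity and a detection p-value for each probe on each array. The deposited series matrix holds log2 values, whose steps are not given in the sources used here. They equal the quantile-normalized log2 intensities without background correction (array medians 6.91 or 6.92) and served as an alternative. The submitters' processing notes name GenomeStudio.

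Intensities were corrected with normexp using detection p-values, offset 16, then quantile-normalized and log2-transformed (neqc, limma 3.58.1, R 4.3.3). A probe was kept if at least 2 of 6 arrays had detection p under 0.05 (17631 probes). Each gene was read from its brightest probe, leaving 12492 features, 9548 of them named. Names came from the platform annotation, updated through Entrez identifiers (34807 probes) or accessions (11), otherwise left as given (67). This gave 1 symbol to 34885 probes, several to 18 and none to 10378, and 0 probes of the listed genes were named through an alias. limma fitted 1 mean per group to the 6 arrays (3 residual and 4.29 prior degrees of freedom), moderated by eBayes, with Benjamini-Hochberg adjustment. The steps were tested on simulated data. The small number of arrays limits the precision. With 2 arrays against 2 no exact permutation test can reach the threshold, so none was run.

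The listed genes and all lists were chosen with earlier results of these data known. All 35 genes are named. Of each other list the text draws on at most 3 called genes per direction and comparison with the largest change. The labels do not say whether same-numbered arrays belong together. Their deviations showed no shared shift (correlations of 0.09, -0.06 and 0.01), which cannot settle whether they came from the same experiment. Alternatives covered background correction, scaling, filter, probe rule, arrays in the fit, moderation, threshold, a replicate block and leaving out each array.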

Additional observations from a re-analysis of the deposited data

How the results depend on the processing

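All 20 rises in KO cells were called under every alternative that tested the gene, except Tpx2 without wild-type array 1. All 20 rises in AT-3 cells were, except Tpx2 and Cdca5 as given above. The KO count was 13 of 14 genes tested with detection under 0.01 on all 6 arrays, a filter that leaves fewer genes to test, and 14 of 14 were called in AT-3 cells, 13 higher and Kif23 lower. Under that filter 42.6% of all features were called in KO and 45.3% in AT-3 cells, in either direction. Fits that left out 1 array rest on 1 array in a group, which adds no spread of its own. AT-3 against KO gave 12 calls with all probes given an equal median and 17 with no scaling, all lower, and 0 under every other alternative that left out no single array. Cdc25c, at 0.22 there, turned to -0.87 (adjusted p = 0.0435) with no scaling. Over all features the share of calls that were higher moved with scaling: in AT-3 against KO it was 53.6%, and 72.1% (median of detected probes equal), 5.79% (all probes) and 4.81% (no scaling). In KO it was 48.2%, and 37.4%, 61.3% and 64.6%, and in AT-3 cells 49.5%, and 46.2%, 14.3% and 13.1%.

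The size of the rises moved with several choices. With no background taken off, as in the authors' values, the medians of the 24 genes were 2.34 in KO and 2.10 in AT-3 cells. With normexp at an offset of 50 and without detection p-values they were 2.79 and 2.58. The AT-3 median, 3.52, was 2.70 with no scaling, 2.76 with equal medians of all probes and 2.94 with the mean of detected probes, under which the KO median, 3.74, was 4.12, 4.07 and 3.22. Counts over all features fell to 1673 and 1541 in KO cells, and to 1714 and 1531 in AT-3 cells, without wild-type array 1 or 2, from 3990 and 4360. Adding the replicate block, although the labels do not pair the arrays, gave 20, 20 and 0 calls and changed no call. With that block 30%, 33.3% and 10.2% of all features were called. The depth limit here is signal over background: 5 of the 24 tested genes were detected on no wild-type array and 4 on 1, so their size in wild-type cells is only a bound or rests on 1 array, and the 8 undetected genes say nothing about their level.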

Other observations

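Of 11 tested CDK inhibitor and antiproliferative genes, 2 rose and 3 fell in KO cells and 3 rose and 4 fell in AT-3 cells, with medians of -0.21 and -0.25. Beside this and the next list, 15.4% of all features were called higher and 16.5% lower in KO cells. In AT-3 cells these shares were 17.3% and 17.6%. Cdkn3, a phosphatase gene that acts on CDKs, read 6.59 and 6.79 in wild-type, 11.54 and 10.34 in KO and 10.96 and 10.76 in AT-3 cells, rises of 4.25 (SE 0.38, adjusted p = 0.000540) and 4.17 (SE 0.38, adjusted p = 0.000781). Cdkn2c, the INK4 inhibitor p18, rose by 2.66 and 2.01. Gadd45b, a stress response gene, fell by 1.94 and 2.63, and Btg1, an antiproliferative gene, by 1.49 and 2.19. Cdkn1a, the p53 target p21, read 6.25 and 6.07 in wild-type, 6.90 and 6.50 in KO and 7.63 and 7.91 in AT-3 cells. It rose in AT-3 cells (1.61, SE 0.24, adjusted p = 0.00337), was 0.54 in KO cells (adjusted p = 0.131), and differed between AT-3 and KO cells (1.07, SE 0.24, adjusted p = 0.0337).

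Of 8 tested G1 cyclin and kinase genes, 3 rose and 2 fell in each comparison with wild type. Ccnd2, a D-type cyclin gene, read 8.57 and 8.37 in wild-type, 5.03 and 5.01 in KO and 4.66 and 4.93 in AT-3 cells, where neither array detected it. It fell by 3.46 in KO (SE 0.22, adjusted p = 0.000289) and was at least 10.8-fold lower in AT-3 cells (-3.68, SE 0.22, adjusted p = 0.000314). Ccnd1 fell by 2.25 and 2.36, whereas Ccnd3 rose by 1.20 and 1.16. Cdk2, the S phase kinase gene, rose by 2.56 and 1.91. Cdc25a, a phosphatase gene that activates CDK2, read 5.95 and 6.26 in wild-type, 10.01 and 8.71 in KO and 7.33 and 6.94 in AT-3 cells. It rose in KO cells (3.26, SE 0.41, adjusted p = 0.00169), was 1.03 in AT-3 cells (adjusted p = 0.0935), and was lower in AT-3 than in KO cells (-2.23, SE 0.41, adjusted p = 0.0181).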
